A study of Rattus norvegicus with 5 samples.

Results

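The genes described here are cell cycle and DNA replication genes of the rat cornea. They were taken from a list of 38 symbols, 15 with roles in DNA replication and 23 with roles in mitosis, and 36 of them (14 replication and 22 mitosis genes) had a row among the 20339 genes of the count table. E2f1, a transcription factor that turns on replication genes, and Ccnb2, a mitotic cyclin, had no row under those symbols and were not analysed here. Whole corneas of male Sprague-Dawley rats aged 6 months were sequenced, from 3 wild-type animals and from 2 transgenic animals of the line named P1 hMR, which carries and overexpresses human NR3C2, the gene for the mineralocorticoid receptor. The comparison asks whether excess receptor goes with other levels of the proliferation programme. Genotype is what separates the groups in the labels. The promoter that drives the transgene, the number of founder lines, the litters and the time of dissection were not stated in the labels.

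A cell that divides first licenses its replication origins by loading the MCM helicase ring, then copies its DNA around the sliding clamp with nucleotides from ribonucleotide reductase and thymidylate synthase. It then enters mitosis under cyclin-dependent kinase 1, builds a spindle, and leaves mitosis when the anaphase-promoting complex marks cyclin B and securin for destruction. In the adult cornea division is known mainly from the basal epithelium and the limbus, which replace the surface cells that are shed, while keratocytes and the endothelium rarely divide. Replication genes are typically switched on by E2F factors at the end of G1, and mitosis genes later by complexes that bind a CHR element together with NF-Y on CCAAT boxes.

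The letters of E2F sites and CHR elements were unevenly shared between promoters of the replication and mitosis genes. RefSeq windows of assembly GRCr8, from 250 bases before to 50 bases after the gene start, were found by symbol for 28 of the 36 genes (10 replication and 18 mitosis genes). They were searched on both strands for the CHR element (TTTGAA or TTCGAA), the NF-Y box (CCAAT) and 6 forms of the E2F site (TTTCCCGC, TTTGGCGC, TTTCGCGC, TTTGCCGC, TTTCCCGG and TTTGGCGG); E2F matches on opposite strands can overlap, and none of the 3 motifs contains another. An E2F site was found in 7 of 10 replication windows and 2 of 18 mitosis windows, against 4.03% of the 33469 windows in the table. A CHR element was found in 3 of 10 replication and 11 of 18 mitosis windows, against 19.7% of all windows, and a CHR element together with an NF-Y box in 2 of 10 and 10 of 18, against 7.95%. An NF-Y box, with or without a CHR element, was found in 6 of 10 and 14 of 18, against 37.5%. These matches describe letters in the window and are not measured binding sites.

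The 4 stretches below are the 150 bases before the start of 2 mitosis genes (Cdk1 and Kif23) and 2 replication genes (Mcm5 and Mcm2). They were chosen after the motifs were counted. In each class they are the 2 genes of smallest edgeR p with a CHR element (mitosis) or an E2F site (replication) in this stretch. Capitals mark every CHR, NF-Y and E2F match.
Cdk1 (chr20:19265143-19265292, plus strand, GRCr8): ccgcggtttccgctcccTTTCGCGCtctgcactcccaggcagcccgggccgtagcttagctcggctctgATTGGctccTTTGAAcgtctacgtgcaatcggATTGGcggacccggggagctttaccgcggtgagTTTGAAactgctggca
Kif23 (chr8:71320585-71320734, minus strand, GRCr8): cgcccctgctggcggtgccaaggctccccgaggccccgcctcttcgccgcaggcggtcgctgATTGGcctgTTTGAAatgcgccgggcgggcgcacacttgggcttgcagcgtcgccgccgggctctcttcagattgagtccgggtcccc
Mcm5 (chr19:13488663-13488812, plus strand, GRCr8): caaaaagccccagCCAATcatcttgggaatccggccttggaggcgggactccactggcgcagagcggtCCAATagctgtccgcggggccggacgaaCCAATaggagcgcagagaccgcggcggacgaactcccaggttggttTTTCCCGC
Mcm2 (chr4:122918095-122918244, minus strand, GRCr8): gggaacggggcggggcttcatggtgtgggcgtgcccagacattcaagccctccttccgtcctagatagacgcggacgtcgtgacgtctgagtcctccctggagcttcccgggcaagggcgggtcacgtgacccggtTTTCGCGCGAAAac
In the Cdk1 stretch both CHR elements read TTTGAA on the gene's strand, the NF-Y boxes lie on the opposite strand and so read ATTGG, and 1 E2F match (TTTCGCGC) lies farther upstream. Kif23 has the same pairing of ATTGG and TTTGAA. Mcm5 has an E2F site next to the start and 3 NF-Y boxes, and Mcm2 has E2F sites on both strands that overlap. Pcna had an NF-Y box and no E2F match of these 6 forms in its window.

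Libraries held 20874010 to 30449675 estimated counts, of which the 36 genes took 0.134% to 0.153%. Human NR3C2 had 0 counts in each wild-type library and 1094 and 1146 counts in the transgenic libraries, as labelled. Defining genes of corneal epithelium (Krt12 at 32247 to 45506 CPM), keratocytes (Kera at 144 to 203 CPM) and endothelium (Slc4a11 at 227 to 264 CPM) were present in every library. CPM are counts scaled to the library total after TMM, a correction of that total. They are not divided by gene length, so levels are compared between corneas and not between genes.

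Of the 36 genes, 33 had a lower estimate in transgenic than in wild-type corneas, but 0 passed the edgeR quasi-likelihood test after adjustment over all 13304 genes tested. The median log2 fold change (transgenic against wild-type) was -0.12 for the 14 replication genes, of which 14 were negative (13 with upper-quartile scaling, where Mcm7 changed sign). It was -0.093 for the 22 mitosis genes, of which 19 were negative (18 with upper-quartile scaling, where Kif2c changed sign). Over all genes tested the median was -0.0078 and 51.8% were negative and 48.2% positive. The estimates were small, from -0.39 for Ccne1 to 0.090 for Cenpe. The test called 0.00752% of all genes (NR3C2 alone). At an unadjusted p under 0.05 it gave 2 of the 36 genes, Ube2c and Cdk1, both lower, and 0 higher. The shares of all genes were 1.93% lower and 4.39% higher, or 6.32% in either direction. DESeq2 called 0 of the 36 and 0.391% of all genes, with 3 of the 36 and 6.1% of all genes at an unadjusted p under 0.05. For limma voom those were 0 of the 36 and 0.00752% of all genes, with 2 of the 36 and 6.97% at an unadjusted p under 0.05. Whether the lower estimates are a real difference is not settled by these tests. If they are, fewer dividing cells and less of these RNAs in each dividing cell cannot be told apart in whole corneas.

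Both transgenic values lay below all 3 wild-type values for 11 of the 36 genes, against 10.7% of all genes tested, and above them for 0, against 12%. The 11 were 6 replication genes (Ccne2, Cdc6, Mcm2, Mcm4, Pcna and Rrm1) and 5 mitosis genes (Cdk1, Ccna2, Kif23, Nusap1 and Ube2c). With 3 against 2 animals an exact permutation test on the ranks of a single value cannot give a two-sided p below 0.2, so the separation of 1 gene is a description. Each library is taken as 1 rat. Nothing in the labels gives litters or batches. The p-values set the difference between genotypes against the spread between these samples, part of which may be technical. The map of levels by library shows that lower values were more frequent in transgenic cornea 2 than in transgenic cornea 1.

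**Figure D1:**
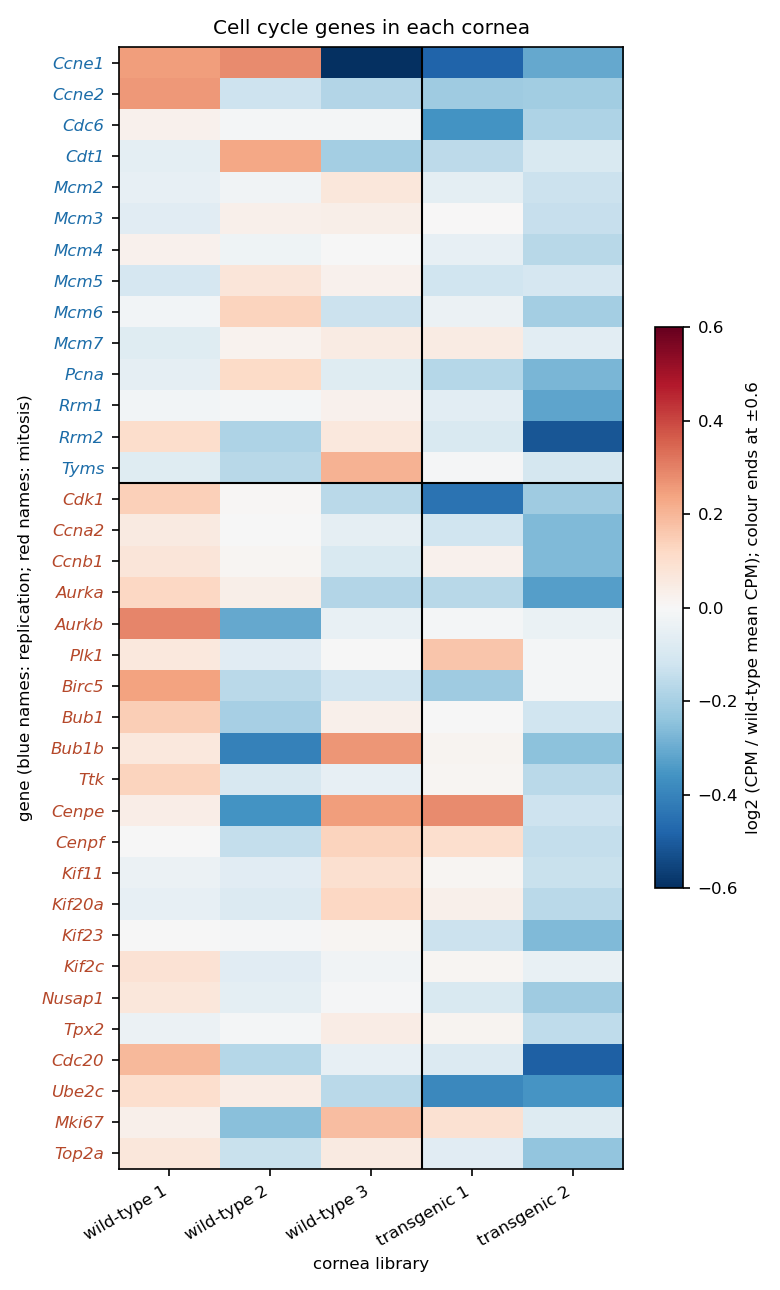
Level of each of the 36 cell cycle genes (rows) in the 5 corneas (columns), as log2 of CPM over the wild-type mean; blue is lower and red is higher, and the colour scale ends at 0.6 in each direction. Transgenic cornea 2 had the lowest value of the 5 corneas for 18 of the 36 genes and the highest for 0, against 23.4% and 23.1% of all genes tested, and wild-type cornea 1 the highest for 17, against 18.8%.

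The cyclin E genes open the replication programme. Ccne1, which activates CDK2 at the G1/S boundary, had the lowest counts of the 36 genes, at 4.55, 4.65 and 2.28 CPM in wild-type corneas 1 to 3, against 2.74 CPM in transgenic cornea 1 and 3.09 CPM in transgenic cornea 2. Its wild-type values differed by 2.04-fold among themselves and covered both transgenic values (log2 fold change -0.39 ± 0.34, adjusted p = 0.878). Ccne2, its paralogue, had 9.83, 7.52 and 7.26 CPM in the wild-type rats, against 7.08 and 7.10 CPM in the transgenic rats. Wild-type cornea 1 stood above the other 4, which lay between 7.08 and 7.52 CPM, and without it the log2 fold change was -0.054 in place of -0.21.

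The 8 origin licensing genes had a median log2 fold change of -0.11 and the smallest median spread over the 5 corneas of the 9 roles (SD of log2 levels 0.0794). Cdc6, which loads the helicase onto origins, was at 5.38, 5.24 and 5.24 CPM in wild-type corneas 1 to 3, against 4.13 CPM in transgenic cornea 1 and 4.65 CPM in transgenic cornea 2, so the wild-type values were close together and both transgenic values lay under them (log2 fold change -0.27 ± 0.21, adjusted p = 0.870). Cdt1, its loading partner, had 8.92, 10.9 and 8.06 CPM in the wild-type rats, against 8.33 and 8.72 CPM in the transgenic rats, with wild-type cornea 2 the highest and wild-type cornea 3 the lowest. The 6 subunits of the MCM helicase ring, Mcm2 to Mcm7, had negative estimates, between -0.12 for Mcm6 and -0.0067 for Mcm7, although the Mcm7 estimate was positive with upper-quartile scaling. Mcm4 had 58.02, 55.9 and 56.8 CPM in the wild-type rats, against 54.98 and 50.7 CPM in the transgenic rats, and Mcm2 52.7, 53.8 and 57.2 CPM in the wild-type rats, against 52.4 and 49.9 CPM in the transgenic rats. Neither subunit overlapped between the groups, but transgenic cornea 1 lay close under the lowest wild-type value in both. Mcm3, Mcm5, Mcm6 and Mcm7 overlapped. The 95% interval of the log2 fold change was -0.31 to 0.10 for Mcm4 and -0.23 to 0.22 for Mcm7, which leaves room for a change of either sign.

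The sliding clamp and the enzymes of nucleotide supply had a median log2 fold change of -0.20 over 4 genes. Pcna, the clamp that holds DNA polymerase on its template, was at 80.8, 90.8 and 79.8 CPM in wild-type corneas 1 to 3, against 74.5 CPM in transgenic cornea 1 and 69.4 CPM in transgenic cornea 2. Both transgenic values lay below the lowest wild-type value, and the gene missed the threshold over all genes (log2 fold change -0.22 ± 0.10, 95% interval -0.44 to 9.2e-05, adjusted p = 0.788). Rrm1, the large subunit of ribonucleotide reductase, was at 110.5, 111 and 113 CPM in wild-type corneas 1 to 3, against 107 CPM in transgenic cornea 1 and 89.5 CPM in transgenic cornea 2, where transgenic cornea 2 alone stood well away from the wild-type values. Without transgenic cornea 2 the Rrm1 log2 fold change was -0.060, against -0.18 with all libraries. Rrm2, the small subunit made in S phase, had 58.7, 47.99 and 57.02 CPM in the wild-type rats, against 51.2 and 38.3 CPM in the transgenic rats; transgenic cornea 1 lay inside the wild-type range and transgenic cornea 2 below it (log2 fold change -0.29 ± 0.14, or -0.091 without transgenic cornea 2). Tyms, thymidylate synthase, had 16.2, 15.2 and 19.7 CPM in the wild-type rats, against 16.9 and 15.8 CPM in the transgenic rats, with full overlap.

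Among the mitotic kinase and its cyclins, Cdk1, the kinase that drives entry into mitosis, was at 29.9, 27.2 and 24.2 CPM in wild-type corneas 1 to 3, against 19.9 CPM in transgenic cornea 1 and 23.3 CPM in transgenic cornea 2. Every transgenic value lay below every wild-type value, while the 3 wild-type values themselves spread over 1.24-fold. The log2 fold change was -0.32 ± 0.13 (95% interval -0.62 to -0.025, edgeR adjusted p = 0.765), and it ranged from -0.44 to -0.22 when each library was left out in turn. Ccna2, cyclin A2, which serves S phase and early mitosis, had 46.3, 44.4 and 42.9 CPM in the wild-type rats, against 40.98 and 37.1 CPM in the transgenic rats and did not overlap (adjusted p = 0.833). Ccnb1, cyclin B1, had 32.6, 31.3 and 29.1 CPM in the wild-type rats, against 31.5 and 25.9 CPM in the transgenic rats, where transgenic cornea 1 was within the wild-type range.

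The genes of mitotic exit included the member with the smallest p. Ube2c, the ubiquitin-conjugating enzyme that works with the anaphase-promoting complex, was at 35.3, 33.96 and 29.4 CPM in wild-type corneas 1 to 3, against 25.2 CPM in transgenic cornea 1 and 25.7 CPM in transgenic cornea 2. The transgenic values were close to each other and below the wild-type range, with 32.9 ± 3.12 CPM in the wild-type rats, against 25.4 ± 0.364 CPM in the transgenic rats (SD, n = 3 and n = 2). The log2 fold change was -0.37 ± 0.12 (95% interval -0.64 to -0.11), the adjusted p was 0.599 by edgeR and 0.413 by DESeq2, and without each library in turn the log2 fold change ran from -0.44 to -0.31. Cdc20, the activator of that complex, was at 46.4, 35.9 and 39.2 CPM in wild-type corneas 1 to 3, against 38.2 CPM in transgenic cornea 1 and 28.8 CPM in transgenic cornea 2. Transgenic cornea 2 was the lowest library, and the log2 fold change was -0.28 ± 0.15 with all libraries and -0.084 without that cornea.

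Aurora and polo kinases and survivin, which align chromosomes and drive cytokinesis, overlapped between genotypes in each of 4 genes. Aurkb, the kinase of the chromosomal passenger complex, was at 25.1, 16.6 and 19.9 CPM in wild-type corneas 1 to 3, against 20.4 CPM in transgenic cornea 1 and 19.96 CPM in transgenic cornea 2, and the wild-type values alone spanned 1.51-fold. Aurka, the centrosome kinase, had a log2 fold change of -0.25 ± 0.18, Birc5 (survivin) -0.11 ± 0.18 and Plk1, the polo-like kinase, 0.079 ± 0.13. Adjusted p-values of the 4 lay between 0.860 and 0.985.

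The 5 spindle checkpoint and kinetochore genes, which hold chromosomes to the spindle until all are attached, overlapped between genotypes. Cenpf, a kinetochore protein, was at 79.04, 71.5 and 86.7 CPM in wild-type corneas 1 to 3, against 84.7 CPM in transgenic cornea 1 and 71.5 CPM in transgenic cornea 2. Wild-type cornea 2 and transgenic cornea 2 were the low libraries and the other 3 the high ones. Cenpe, a kinetochore motor, had the same low libraries with 30.9, 23.4 and 35.8 CPM in the wild-type rats, against 36.6 and 27.5 CPM in the transgenic rats and a log2 fold change of 0.090 ± 0.20, which was -0.55 from its isoform sums. Bub1b, a checkpoint component, had 24.1, 17.4 and 27.7 CPM in the wild-type rats, against 23.4 and 19.4 CPM in the transgenic rats, a 1.59-fold range among wild-type corneas. The checkpoint kinases Bub1 and Ttk had log2 fold changes of -0.061 ± 0.13 for Bub1 and -0.075 ± 0.14 for Ttk.

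Of the 6 genes for spindle motors and assembly, Kif23 and Nusap1 did not overlap between genotypes. Kif23, a kinesin of the central spindle, was at 98.4, 98.1 and 99.3 CPM in wild-type corneas 1 to 3, against 90.1 CPM in transgenic cornea 1 and 82.01 CPM in transgenic cornea 2. The wild-type values lay within 1.01-fold of each other and both transgenic values were lower (log2 fold change -0.20 ± 0.090, 95% interval -0.40 to 0.0050, adjusted p = 0.791). The isoform rows of Kif23 held far fewer counts than its gene row, by up to 86.2% in a library, and their sum gave 0.26. Nusap1, which bundles spindle microtubules, had 40.1, 36.8 and 38.1 CPM in the wild-type rats, against 36.01 and 33.1 CPM in the transgenic rats (log2 fold change -0.15 ± 0.10, adjusted p = 0.860). Kif11, which pushes the spindle poles apart, Kif20a, Kif2c and the spindle assembly factor Tpx2 had log2 fold changes between -0.066 and -0.016 (the Kif2c estimate was positive with upper-quartile scaling) and overlapped.

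The chromatin genes overlapped as well. Mki67, which coats mitotic chromosomes and is used to count dividing cells, was at 152, 125 and 169 CPM in wild-type corneas 1 to 3, against 158 CPM in transgenic cornea 1 and 140.5 CPM in transgenic cornea 2, so both transgenic values lay inside the wild-type range. Its means were 148 ± 22.2 CPM in the wild-type rats, against 149 ± 12.3 CPM in the transgenic rats, and the 95% interval of its log2 fold change, -0.29 to 0.30, spans 0 nearly evenly. Top2a, the topoisomerase that untangles sister chromatids, had 129, 112 and 127 CPM in the wild-type rats, against 117 and 104 CPM in the transgenic rats, with transgenic cornea 2 below the wild-type range and transgenic cornea 1 inside it (log2 fold change -0.15 ± 0.10, adjusted p = 0.860, or -0.069 without transgenic cornea 2).

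**Figure D2:**
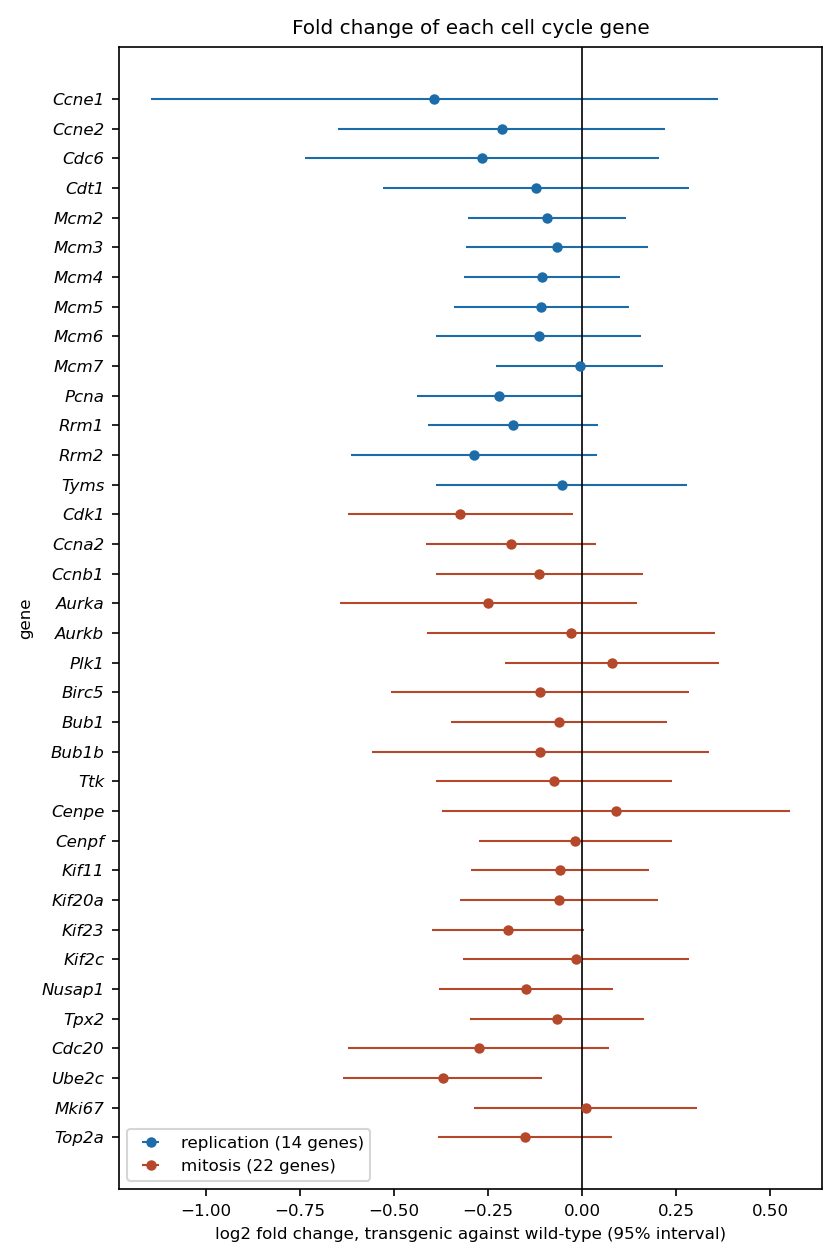
Log2 fold change of transgenic against wild-type corneas for the 36 genes (points), with the 95% interval of the edgeR fit (lines) and the vertical line at no difference; replication genes are blue and mitosis genes red. Intervals of 34 genes include 0, and those of Cdk1 and Ube2c lie below it before adjustment over all genes.

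Replication and mitosis genes were ordered differently among the libraries. As the mean of log2(CPM + 0.5) over a class, set to 0 at the wild-type mean, the replication score was 0.016, 0.030 and -0.046 in wild-type corneas 1, 2 and 3 and -0.11 and -0.19 in transgenic corneas 1 and 2. Both transgenic scores lay below all 3 wild-type scores. The mitosis score was 0.087, -0.10 and 0.018 in wild-type corneas 1, 2 and 3 and -0.036 and -0.18 in transgenic corneas 1 and 2. Here wild-type cornea 2 lay below transgenic cornea 1, so the groups overlapped. Because the genes were proposed with results of these data known, no test was made on the scores, and the difference between the classes (replication minus mitosis score) was -0.070, 0.13 and -0.064 in wild-type corneas 1, 2 and 3 and -0.073 and -0.011 in transgenic corneas 1 and 2, which overlapped too.

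Wild-type cornea 1 was higher than wild-type cornea 2 in 21 of 22 mitosis genes, by a median of 1.10-fold, and in 5 of 14 replication genes, with a median of 0.979-fold. Between the transgenic corneas, number 1 was higher than number 2 in 19 of 22 mitosis genes (median 1.12-fold) and in 9 of 14 replication genes (median 1.07-fold). The median SD of log2(CPM + 0.5) over the 3 wild-type corneas was 0.129 for mitosis and 0.095 for replication genes, beside 0.130 for the 9472 tested genes in the same range of mean CPM. Members of a class share libraries, so their counts are not independent observations.

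The mitosis values rested in large part on 1 library. Without transgenic cornea 2, 11 of 22 mitosis genes had a negative estimate in place of 19, and their median log2 fold change was 0.0045 in place of -0.093. The replication genes then had 12 of 14 negative estimates and a median of -0.075, against -0.12 with all libraries. Without transgenic cornea 1, 22 of 22 and 14 of 14 were negative, with medians of -0.16 and -0.18, and without wild-type cornea 2 the mitosis median was -0.15. Estimates of single genes were also closer to 0 by over 1.5 times. Without transgenic cornea 2 the log2 fold change was -0.048 for Mcm4, -0.031 for Mcm6, -0.12 for Ccna2, -0.13 for Kif23, -0.089 for Nusap1 and -0.23 for Mybl2. It was -0.057 for Mcm2 without that cornea and -0.054 without wild-type cornea 3. Leaving out a library changes the background of separated genes as well: without transgenic cornea 1, 22 of the 36 genes lay below all wild-type values, against 27.5% of all genes, and without transgenic cornea 2, 13 of 36 against 23.8%.

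**Figure D3:**
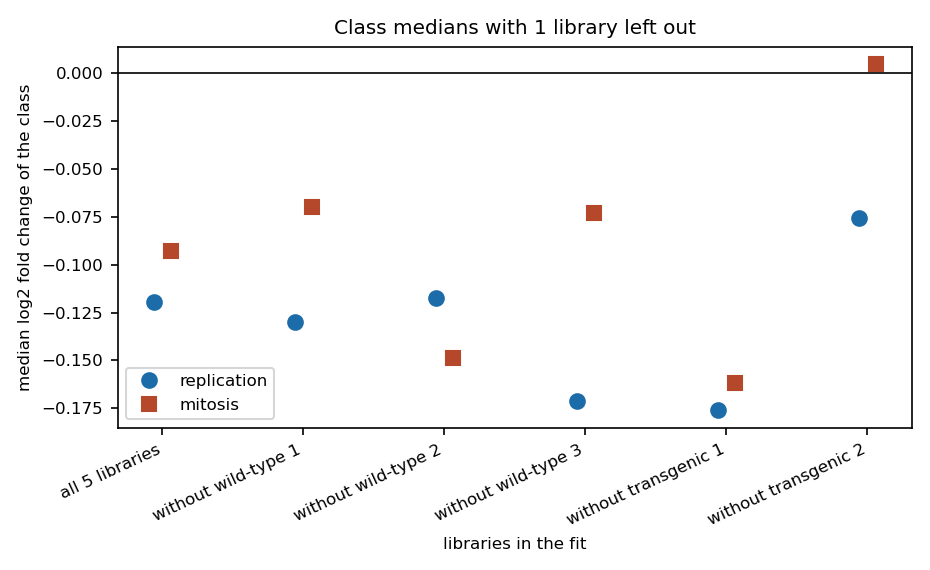
Median log2 fold change of the 14 replication genes (blue circles) and the 22 mitosis genes (red squares) in fits with all 5 libraries and with each library left out. The replication median stays between -0.18 and -0.075, and the mitosis median lies between -0.16 and 0.0045, the highest without transgenic cornea 2.

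Other genes of the pathway, 138 of which were tested from 147 listed, had 107 negative estimates and 0 called by edgeR, against 51.8% negative over all genes. At an unadjusted p under 0.05, 3 of the 138 were higher and 6 lower, against 4.39% and 1.93% of all genes. DESeq2 and limma voom called 0 and 0 of them. Replication fork enzymes had 23 of 26 negative (22 with upper-quartile scaling) and a median log2 fold change of -0.15; 13 of the 26 had both transgenic values below all wild-type values, against 10.7% of all genes. Rfc5, a subunit of the clamp loader for PCNA, had 28.3, 31.8 and 30.6 CPM in the wild-type rats, against 27.1 and 23.1 CPM in the transgenic rats. Its transgenic values lay below all wild-type values (log2 fold change -0.27 ± 0.12, edgeR adjusted p = 0.786), and without transgenic cornea 2 the log2 fold change was -0.16. The score of this list was 0.0069, -0.0091 and 0.0022 in wild-type corneas 1, 2 and 3 and -0.14 and -0.13 in transgenic corneas 1 and 2, so its wild-type scores lay close together and both transgenic scores lay under them.

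Origin and helicase partners had 15 of 20 negative estimates (median -0.12). Orc5, a subunit of the origin recognition complex, had 20.04, 23.2 and 21.4 CPM in the wild-type rats, against 18.2 and 18.7 CPM in the transgenic rats, while Cdc45, which joins the MCM ring in the active helicase, was higher in both transgenic corneas with 4.37, 5.04 and 2.91 CPM in the wild-type rats, against 5.17 and 7.04 CPM in the transgenic rats (log2 fold change 0.57 ± 0.27, adjusted p = 0.811). Mitosis partners had 34 of 41 negative (31 with upper-quartile scaling; median -0.14), and 11 of the 41 had both transgenic values below all wild-type values, against 10.7% of all genes. Nuf2 and Ndc80 are subunits of the same microtubule-binding complex of the kinetochore. Nuf2 had 18.7, 18.1 and 15.9 CPM in the wild-type rats, against 14.1 and 11.6 CPM in the transgenic rats. Ndc80 had 27.6, 23.9 and 27.1 CPM in the wild-type rats, against 21.2 and 19.8 CPM in the transgenic rats. In both genes every transgenic value lay below every wild-type value (log2 fold change -0.45 ± 0.15 for Nuf2 and -0.36 ± 0.12 for Ndc80, adjusted p = 0.640 and 0.664). Cks1b, a small CDK-binding protein chosen for mention after its values were seen, had 17.9, 17.8 and 18.1 CPM in the wild-type rats, against 14.7 and 12.7 CPM in the transgenic rats (log2 fold change -0.39 ± 0.13).

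Regulators of G1 and inhibitors of CDKs were described in the same way. G1 cyclins and kinases had 3 of 6 negative estimates and a median of -0.0024 (positive with upper-quartile scaling). Cdk4 was at 0.092 ± 0.11 and Cdk2, which cyclin E activates at the G1/S boundary, at -0.10 ± 0.14. Inhibitors of CDKs had 4 of 6 positive estimates. Cdkn1b (p27), the inhibitor that holds cells in G1, was at 63.9, 67.6 and 74.2 CPM in wild-type corneas 1 to 3, against 80.2 CPM in transgenic cornea 1 and 87.9 CPM in transgenic cornea 2, all transgenic values above all wild-type values, and missed the threshold, with a log2 fold change of 0.29 ± 0.10 and an edgeR adjusted p of 0.664. Cdkn1c (p57) had 15.2, 12.6 and 12.6 CPM in the wild-type rats, against 14.4 and 17.6 CPM in the transgenic rats, with overlap.

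Among RB, E2F and DREAM regulators 15 of 19 estimates were negative (median -0.053). Rb1, the retinoblastoma protein that restrains E2F, had 62.97, 70.6 and 69.3 CPM in the wild-type rats, against 83.2 and 75.3 CPM in the transgenic rats and Tfdp2, a partner of E2F factors, 5.09, 5.68 and 6.15 CPM in the wild-type rats, against 7.25 and 9.04 CPM in the transgenic rats; both were higher in each transgenic cornea. Mybl2, which joins the complex that turns on mitosis genes and was chosen for mention after its values were seen, had 18.99, 16.6 and 14.8 CPM in the wild-type rats, against 14.3 and 11.6 CPM in the transgenic rats. Adjusted p-values of these 3 were 0.777, 0.730 and 0.777. The list of the anaphase-promoting complex, made of its core subunits and the co-activator Fzr1, had 10 of 12 negative estimates (8 with upper-quartile scaling) with a median of -0.038, with Fzr1 (-0.18 ± 0.11) and Cdc16 (-0.17 ± 0.10). Targets of p53 had 5 of 8 negative (median -0.039), with Gadd45a at -0.27 ± 0.17 and Sesn1 at 0.14 ± 0.12.

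**Figure D4:**
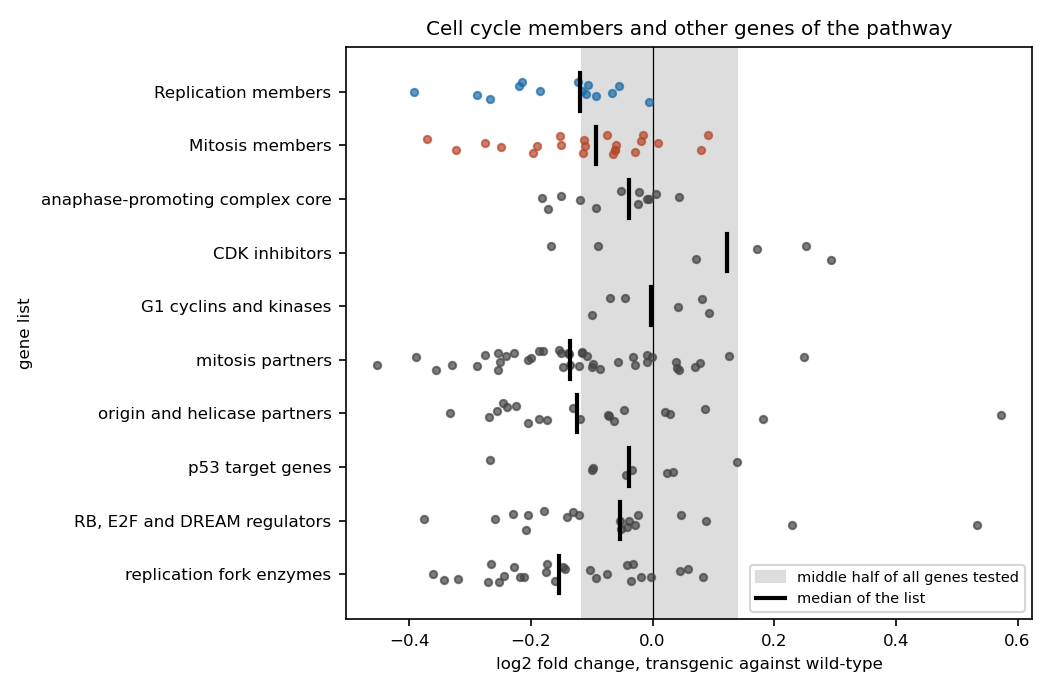
Log2 fold change of transgenic against wild-type corneas for each gene (points) of the replication and mitosis members and of 8 other lists of the pathway, with list medians as black bars; the grey band spans the lower to the upper quartile of all genes tested, -0.12 to 0.14. The lowest medians are those of the replication fork enzymes (-0.15) and mitosis partners (-0.14), and the highest is that of the CDK inhibitors (0.12).

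Markers of other cell types were summed to describe what each cornea held. Keratocyte markers were higher in transgenic corneas in 8 of 9 genes (9 of 9 with upper-quartile scaling), with summed levels of 2598 to 2771 CPM in the wild-type rats, against 3285 to 3346 CPM in the transgenic rats. Endothelial markers were higher in 7 of 9, with 1853 to 1942 CPM in the wild-type rats, against 2031 to 2054 CPM in the transgenic rats. The 2 lower genes were Tjp1 and Slc4a11, named above as a defining gene of endothelium. Slc4a11 had 264, 237 and 249 CPM in the wild-type rats, against 246 and 227 CPM in the transgenic rats. Tjp1 had 578, 546 and 529 CPM in the wild-type rats, against 534 and 487 CPM in the transgenic rats. Basal and limbal epithelial markers, from the layer that holds the dividing cells, were higher in 5 of 8 genes and their sums overlapped, with 38636 to 40904 CPM in the wild-type rats, against 38363 to 45639.8 CPM in the transgenic rats. Krt5 made up most of each sum (30500 CPM in wild-type cornea 1). Of these 8, Ifitm3 alone had both transgenic values below all wild-type values, and 0 had both above, against 10.7% and 12% of all genes. Ifitm3 was at 170, 145 and 178 CPM in wild-type corneas 1 to 3, against 110 CPM in each transgenic cornea. Markers of differentiated epithelium were higher in 3 of 7 (4 of 7 with upper-quartile scaling), with 76351 to 88172 CPM in the wild-type rats, against 68611 to 88198 CPM in the transgenic rats, and the lowest sum of the 5 was that of transgenic cornea 2. Leukocyte markers were higher in 5 of 9, with 107 to 117 CPM in the wild-type rats, against 99.02 to 118 CPM in the transgenic rats; Cd3e of T cells was at 0 in transgenic cornea 1 and under 0.11 CPM in the others. Pigment cell and iris markers were higher in 8 of 8, with 13.1 to 52.9 CPM in the wild-type rats, against 93.4 to 168 CPM in the transgenic rats, and lens markers lower in 8 of 8, with 22.3 to 109 CPM in the wild-type rats, against 10.2 to 14.8 CPM in the transgenic rats. The part of these differences in the cell cycle values was not tested.

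**Figure D5:**
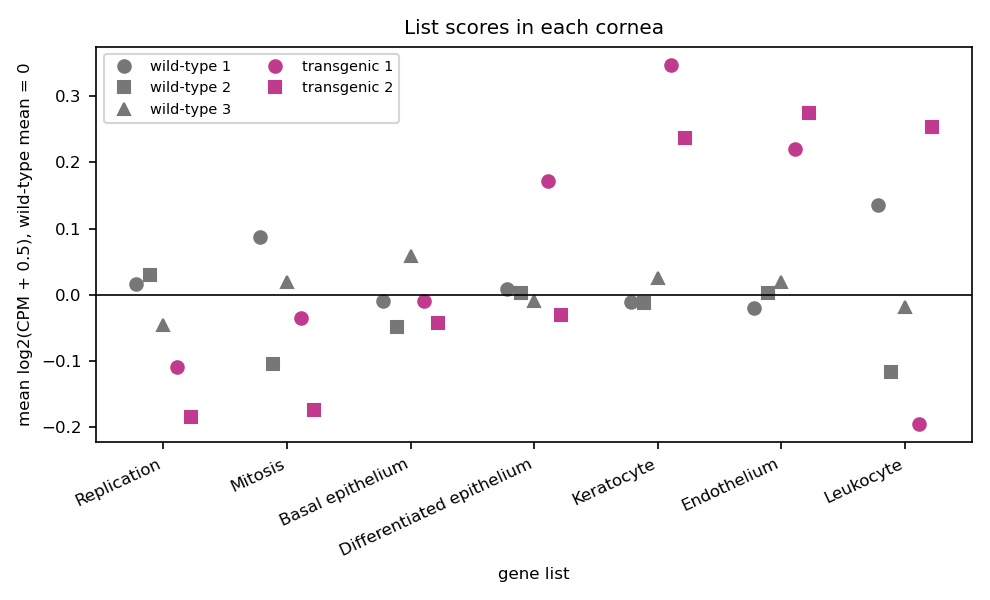
List scores (mean log2(CPM + 0.5), wild-type mean at 0) in the 3 wild-type corneas (grey) and the 2 transgenic corneas (magenta) for replication and mitosis genes and 5 lists of cell type markers. Replication scores are lower, and keratocyte and endothelial scores higher, in both transgenic corneas than in all 3 wild-type corneas. The mitosis and basal epithelial scores overlap, and the transgenic scores of differentiated epithelium and leukocytes lie on opposite sides of the wild-type range.

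Clock genes, which are known to gate division in the corneal epithelium over the day, were summarised for each library too. The score of clock output genes minus that of the opposite phase was -1.28, 0.17 and 1.11 in wild-type corneas 1, 2 and 3 and 0.73 and 1.73 in transgenic corneas 1 and 2. The lowest clock score and the highest mitosis score were both in wild-type cornea 1, and the highest clock score and the lowest mitosis score both in transgenic cornea 2. The other 3 corneas did not keep that order, since wild-type cornea 3 had a higher clock score than transgenic cornea 1 and a higher mitosis score. The replication score was also lowest in transgenic cornea 2 (-0.19), but it was highest in wild-type cornea 2 (0.030) and not in wild-type cornea 1 (0.016). The part of the clock phase in the cell cycle values was not tested.

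Isoforms, the separate transcripts of a gene, were counted as well. The isoform table held 46 rows for the 36 members, 42 of which were tested; 0 were called by edgeR over 27110 isoforms, and 0 of the 42 had an unadjusted p under 0.05, against 3.98% of all isoforms. Among the 10 members with 2 or more isoform rows, Tpx2, the spindle assembly factor, had the most even shares of the counts in its rows. On average 41.3% were on ENSRNOT00000010851 and 58.7% on ENSRNOT00000088481, with ranges over the 5 libraries of 37.4% to 43.98% and 56.0% to 62.6%. For other members, such as Kif23 and Cdc20, the isoform rows missed part of the gene count, so their division is not known. Ccna2 had 14.0% on its minor form, ENSRNOT00000021156, with 8.85% in wild-type cornea 1 and 19.6% in transgenic cornea 2, and 12.7% to 14.6% in the other 3. Shares of single isoforms rest on how the authors' estimate divided shared reads.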

How the data were processed

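Whole-cornea RNA of 3 wild-type and 2 transgenic rats was sequenced. The authors deposited tables of genes and of isoforms. Their values are estimated counts (expected counts) that the authors made before deposit and, as deposited, neither scaled nor log-transformed. Per the submitters' processing notes, STAR 2.5.3a, RSEM 1.2.28, DESeq2 1.26.0, edgeR 3.28.0, FastQC and fastp were used with build rn6, in no stated order. No source states strand handling, so antisense reads cannot be told apart.

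Counts were rounded, filtered with filterByExpr (minimum count 10), scaled by TMM and tested with the robust quasi-likelihood test of edgeR 4.0.16 in R 4.3.3, two-sided, with Benjamini-Hochberg adjustment over all 13304 genes and a threshold of 0.05. Values after ± are SE for log2 fold changes and SD for means; 95% intervals use the fit's degrees of freedom. DESeq2 1.42.0, limma voom 3.58.1 and other settings were alternatives. The procedure was tested on simulated data. Scores use a pseudocount of 0.5 CPM. The members and lists were chosen with earlier results of these data known. Values in every library are given for the most abundant member of each role, members with an unadjusted p under 0.05 and members whose groups do not overlap; other members were added after their values were seen. The 2 genes of smallest p are named from each other pathway list, except 1 gene that is not reported here. Kif2c has 2 promoter entries, of which the first was used. Depth limits Ccne1 most, with 50 to 126 counts per library.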

Additional observations from a re-analysis of the deposited data

How the results depend on the processing

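Leaving out Ccna2, Mki67 and Top2a left the mitosis median negative. All of them are mitosis genes, so that setting could not change the replication median. Changing the pseudocount to 0.1 or 2 CPM left each score difference negative, and it moved by less than 1 SD of the wild-type scores. A minimum mean of 1 CPM removed no member, as the lowest mean was 3.46 CPM, so that setting could not change the medians. No member was called in any alternative that kept both transgenic corneas. The 13 alternatives each had their own scaling, filter, tool, table or set of libraries. Of 467 member estimates 431 kept their sign, but 19 of the 36 genes changed sign in at least 1 alternative. Without transgenic cornea 2 alone, 10 genes did so. The alternative with a non-robust dispersion returned the same estimates, so no sign could change there. Over all genes 1 gene was called, or 2 with no filter on low counts, 52 with DESeq2, 2 with isoform sums and 2 to 36 with each library left out; the cause was not tested. The replication median log2 fold change was -0.12, and -0.18 to -0.075 with each library left out. The mitosis median was -0.093, and -0.16 to 0.0045. The class difference in medians (replication minus mitosis) was -0.027, and -0.098 to 0.031 with each library left out, so its sign was not stable. Estimates that changed sign with a library left out ran from -0.15 to 0.15 for Aurkb, -0.22 to 0.037 for Birc5, -0.14 to 0.028 for Bub1, -0.16 to 0.011 for Ttk, -0.045 to 0.037 for Kif2c, -0.21 to 0.012 for Cdt1, -0.063 to 0.050 for Mcm7, -0.13 to 0.28 for Cenpe, -0.095 to 0.11 for Mki67, -0.12 to 0.065 for Tyms, -0.27 to 0.042 for Bub1b, -0.15 to 0.10 for Cenpf, -0.16 to 0.031 for Kif20a, -0.014 to 0.17 for Plk1, -0.14 to 0.0040 for Mcm3, -0.26 to 0.025 for Ccnb1, -0.14 to 0.015 for Kif11 and -0.15 to 0.018 for Tpx2. Mcm7 and Kif2c had 0.011 and 0.0014 with upper-quartile scaling. With isoform sums Ccnb1 had -0.97, Bub1 -0.34, Mcm4 -0.23, Mcm6 -0.074, Mcm7 -0.078, Ttk -0.12, Tyms -0.0075 and Ccne2 -0.073, each over 1.5 times from its gene-row value with the same sign, while Cenpe had -0.55 and Kif23 0.26; the class difference in medians (replication minus mitosis) was 0.0064, against -0.027 from gene rows. Those sums differed by over 1% from the gene count for 17 of the 36 members, and Aurka had too few counts there to be tested.

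Replicate numbers shared between groups are only titles: deviations of same-numbered corneas correlated at 6.6e-04 (number 1) and -0.11 (number 2). With the replicate number as a block 16 genes and 0 members were called, the replication median was -0.18, the mitosis median -0.070 and their difference -0.11. In that fit Mcm7, Tyms, Bub1b, Cenpf and Kif20a had 0.019, 0.063, 0.055, 0.050 and 7.9e-04.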
